A study of Arabidopsis thaliana with 12 samples.

Results

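Transcripts of 9 genes of glucosinolate hydrolysis were followed in ageing Arabidopsis thaliana leaves: the myrosinases TGG1 (AT5G26000), TGG2 (AT5G25980) and PEN2 (AT2G44490), the specifier proteins ESP (AT1G54040), NSP1 (AT3G16400), NSP2 (AT2G33070) and NSP5 (AT5G48180), and the lipase-like modifiers ESM1 (AT3G14210) and MVP1 (AT1G54030). They were chosen by locus for their roles in the pathway, with earlier results of these data known. All 9 were measured, among 19152 genes tested in all. The 4 groups were gvs1-1 at DAE28, gvs1-1 at DAE14, Col at DAE28 and Col at DAE14, with 3 arrays each and 12 in all. Each array carried RNA of leaves 3 and 4, from plants kept on soil for 23 or 37 days. The light cycle was 16 h on and 8 h off, with harvest 5 h into the light. The series title places the comparison in leaf senescence. Col is the common laboratory accession and no treatment was named. gvs1-1 is known here as a single allele: its locus, the accession it was made in, the number of plants behind a sample and the meaning of DAE are not stated in the labels. No transcript could therefore check the genotype labels.

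Glucosinolates are sulfur-containing thioglucosides of the mustard order that are stored apart from the enzymes that cut them. Myrosinases remove the glucose when tissue is damaged, and the unstable aglucone then rearranges to an isothiocyanate, or to an epithionitrile or simple nitrile when a specifier protein is present. In leaves the classical myrosinases TGG1 and TGG2 sit in idioblasts along the veins called myrosin cells and in guard cells, whereas PEN2 works in intact cells during pathogen defence. Transcript levels measure neither enzyme activity nor the products formed.

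Signals are given as multiples of the array's own 75th percentile of processed spot signal, in the order of replicates 1, 2 and 3, and differences are on the log2 scale ± SE from a limma fit across all genes, with Benjamini-Hochberg adjusted p over the 19152 genes and a threshold of 0.05. Levels of different genes are not set against each other, because probes differ in brightness. The 9 genes had 17 probes, of which 16 were well above background on all 12 arrays. The brightest probe of each gene, which stands for it here, was above background on every array. Arrays of a group correlated at 0.972 to 0.992 across genes, and between 63.8% and 72.5% of spots on an array were well above background. The 12 arrays lay on 3 slides scanned on 2 days. Slide 1 held the 3 Col DAE14 arrays with Col DAE28 replicate 1, slide 2 held Col DAE28 replicates 2 and 3 with gvs1-1 DAE14 replicates 1 and 2, and slide 3 held gvs1-1 DAE14 replicate 3 with the 3 gvs1-1 DAE28 arrays. No slide held both genotypes at one stage, while the 8 arrays of scan day 1 (slides 1 and 3) held all 4 groups.

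Relative to the array's 75th percentile, most of these genes had a lower signal at the later stage. That percentile was itself 700.0 to 891 units at DAE14 and 1169 to 1567 units at DAE28. With age, 5 of the 9 fell and 2 rose in gvs1-1, and 6 fell and 1 rose in Col. TGG1, TGG2, ESP, ESM1 and MVP1 fell in both genotypes and NSP5 rose in both, while PEN2 and NSP1 passed in neither. Most genes on the array moved with age too: 61.3% of all genes passed in gvs1-1 and 72% in Col. The share of all genes that fell was 30.1% in gvs1-1 and 36.2% in Col, and 31.2% rose in gvs1-1 and 35.7% in Col. The median age change of the 9 was -0.44 in gvs1-1 and -1.21 in Col, beside medians over all genes of 0.06 in gvs1-1 and 0.01 in Col. The later and earlier arrays did not overlap for 6 of the 9 in gvs1-1, where 68.7% of all genes did not overlap, and for 7 of the 9 in Col, where 75.5% did not. As a check of the stages, the senescence regulator NAP rose by 2.14 ± 0.21 in gvs1-1 (limma adjusted p = 1.7e-05) and by 3.77 ± 0.21 in Col (limma adjusted p = 2.2e-07).

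**Figure D1:**
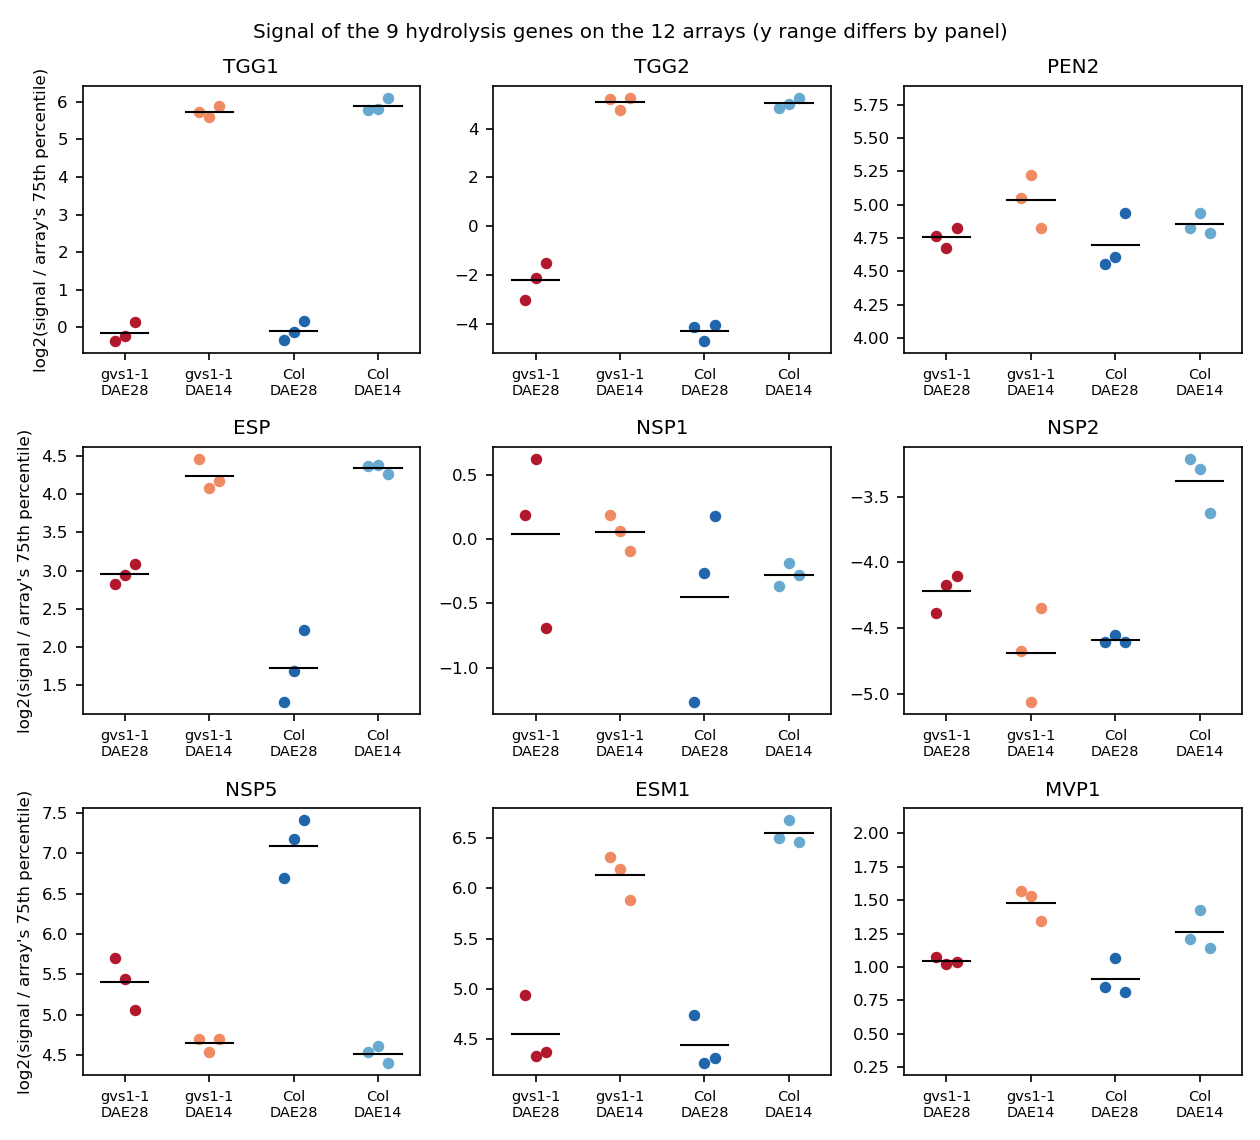
Log2 of signal over the array's 75th percentile for each of the 9 genes on the 12 arrays (points: arrays; black bars: group means of 3 arrays; y range differs by panel). TGG1 and TGG2 show the widest gaps between stages, and NSP5 is the gene whose Col DAE28 arrays, at 104 to 170 times the percentile, lie above every other array.

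TGG1 encodes the most studied classical myrosinase of the leaf. Its signal on gvs1-1 arrays was 0.776, 0.856 and 1.1 at DAE28, against 52.8, 48.6 and 58.8 at DAE14. Col arrays read 0.794, 0.905 and 1.11 at DAE28, against 55.0, 56.3 and 68.6 at DAE14. Every later array was far below every earlier one, and at each stage the genotypes overlapped. TGG1 fell by 5.89 ± 0.17 on the log2 scale in gvs1-1 (limma adjusted p = 4.6e-08), a signal 59.1-fold lower at DAE28, and fell by 6.01 ± 0.17 in Col (limma adjusted p = 1.6e-08), a signal 64.3-fold lower. Ranked by the size of the age change, TGG1 was number 77 in gvs1-1 and number 256 in Col among the 19152 genes. The age changes of the genotypes differed by 0.12, with a 95% interval of -0.40 to 0.65 (limma adjusted p = 0.75). The genotype difference, gvs1-1 minus Col, was -0.04 at DAE28, with an interval of -0.41 to 0.33, and -0.16 at DAE14, with an interval of -0.54 to 0.21, and passed at neither stage (limma adjusted p = 0.87 and 0.67). The other probes of TGG1 gave changes of -6.04 and -6.17 in gvs1-1 and of -6.38 and -6.32 in Col. In bulk leaf RNA, fewer cells of a type and less RNA per cell cannot be told apart.

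TGG2 encodes the second classical leaf myrosinase, which overlaps with TGG1 in function. It lies close to TGG1 on the chromosome, with 2 annotated genes between them that were not measured. The gvs1-1 arrays gave it signals of 0.123, 0.232 and 0.350 at DAE28, against 37.4, 27.3 and 37.7 at DAE14. Col arrays read 0.0570, 0.0384 and 0.0612 at DAE28, against 28.4, 32.4 and 38.0 at DAE14. The stages were widely apart in both genotypes, the DAE14 arrays of the genotypes overlapped, and all 3 gvs1-1 arrays at DAE28 lay above all 3 Col arrays. TGG2 fell by 7.29 ± 0.34 in gvs1-1 (limma adjusted p = 4.6e-07), to a signal 157-fold lower, and fell by 9.32 ± 0.34 in Col (limma adjusted p = 5.3e-08), to a signal 639-fold lower. By size of age change it was number 16 in gvs1-1 and number 21 in Col of all genes tested. The size of the fall varied with the setting. With normexp background correction the change was -7.01 in gvs1-1 and -7.97 in Col, and the authors' deposited table gave -6.82 and -8.11.

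The late remainder of TGG2 was 4.21-fold higher in gvs1-1 than in Col at DAE28, a log2 difference of 2.07 ± 0.34 with a 95% interval of 1.33 to 2.82 (limma adjusted p = 0.0017). At DAE14 the difference was 0.05, with an interval of -0.70 to 0.79 (limma adjusted p = 0.96). The age changes of the genotypes differed by 2.03 ± 0.48 (interval 0.97 to 3.09, limma adjusted p = 0.019). These late signals were dim: before scaling, the processed signal was 161 to 409 units in gvs1-1 and 55.1 to 95.9 units in Col at DAE28. With normexp background correction the DAE28 difference was 1.00 (limma adjusted p = 0.11) and the difference between the age changes was 0.96 (limma adjusted p = 0.37). In the authors' deposited table these were 1.43 (limma adjusted p = 0.0019) and 1.28 (limma adjusted p = 0.031). Within scan day 1, where Col DAE28 had replicate 1 alone and gvs1-1 DAE14 replicate 3 alone, these values were 1.92 and 1.71. With the slide as a block they were 1.91 (limma adjusted p = 0.11) and 1.71 (limma adjusted p = 0.21), and with the scan day as a block 1.92 (limma adjusted p = 0.011) and 1.71 (limma adjusted p = 0.19). The TGG2 result rests on 1 probe, whose sequence was not used here.

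Genes listed for the cells in which TGG1 and TGG2 are known to be made moved in both directions. All 8 genes of this myrosin and guard cell list were measured, and none was at background in any group. Whether their transcripts are confined to those cells was not tested. With age 3 of the 8 fell and 2 rose in gvs1-1 (median -0.29), and 2 fell and 3 rose in Col (median -0.08). Over all genes, 61.3% passed with age in gvs1-1 and 72% in Col. FAMA, the transcription factor that specifies both cell types, fell by 0.50 ± 0.17 in gvs1-1 (limma adjusted p = 0.026), and its change in Col was -0.20 ± 0.17 (limma adjusted p = 0.31). The guard cell potassium channel gene KAT1 rose by 1.21 ± 0.25 in Col (limma adjusted p = 0.0012), and its change in gvs1-1 was -0.02 ± 0.25 (limma adjusted p = 0.96). MYB60 fell by 1.27 ± 0.25 in gvs1-1 (limma adjusted p = 0.0016) and by 0.96 ± 0.25 in Col (limma adjusted p = 0.0063). GORK rose by 0.73 ± 0.26 in gvs1-1 (limma adjusted p = 0.035) and by 0.82 ± 0.26 in Col (limma adjusted p = 0.017). The summed signal of the 8 listed genes ranged over 5.86 to 6.97 at DAE28 and 5.48 to 6.79 at DAE14 in gvs1-1. In Col it ranged over 7.22 to 8.42 at DAE28 and 5.44 to 5.78 at DAE14. SYP22 had the brightest probe of the 8 in every group, so it weighs most in these sums. Its transcript rose by 0.34 ± 0.14 in gvs1-1 (limma adjusted p = 0.048) and by 0.73 ± 0.14 in Col (limma adjusted p = 0.00066). At DAE28, 2 of the 8 were lower in gvs1-1 than in Col, beside 15.3% of all genes, and the other 6 did not pass. Their part in the TGG1 and TGG2 results was not tested.

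Markers of the phloem, next to which myrosin cells lie, were measured for 4 of 4 genes and were above background in all groups. In gvs1-1 3 of the 4 fell with age, beside 30.1% of all genes, and in Col 2 of the 4 fell, beside 36.2%. SUC2 fell by 1.07 ± 0.13 in gvs1-1 (limma adjusted p = 8.3e-05) and by 1.13 ± 0.13 in Col (limma adjusted p = 3e-05). SEOR1, a sieve element protein gene, fell by 3.26 ± 0.26 in gvs1-1 (limma adjusted p = 6.3e-06) and fell by 4.35 ± 0.26 in Col (limma adjusted p = 3.4e-07), and at DAE28 it was higher in gvs1-1 by 1.08 ± 0.26 (limma adjusted p = 0.011). APL, a phloem transcription factor gene, was lower in gvs1-1 at DAE28, with a difference of -0.69 ± 0.19 (limma adjusted p = 0.017), and the other 2 phloem markers did not pass between genotypes there. The summed phloem signal was 24.0 to 26.0 at DAE28 and 39.2 to 43.4 at DAE14 in gvs1-1, and 23.0 to 28.6 at DAE28 and 34.6 to 41.9 at DAE14 in Col. All 4 mesophyll markers fell in both genotypes, with sums of 379 to 490 at DAE28 and 702 to 814 at DAE14 in gvs1-1, and 297 to 342 at DAE28 and 1130 to 1310 at DAE14 in Col. The 4 root markers were above background on at most 2 arrays and stayed out of the tests. The part of phloem and mesophyll transcripts in the results of the 9 genes was not tested.

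PEN2 encodes an atypical myrosinase that cuts indole glucosinolates in living cells. In gvs1-1 the arrays read 27.2, 25.6 and 28.3 at DAE28, against 33.2, 37.4 and 28.3 at DAE14. Col arrays read 23.5, 24.4 and 30.7 at DAE28, against 28.4, 30.7 and 27.6 at DAE14. Neighbouring groups in the order of mean level all overlapped. The age change was -0.28 ± 0.13 in gvs1-1, with an interval of -0.57 to 0.01 (limma adjusted p = 0.089), and -0.15 ± 0.13 in Col, with an interval of -0.44 to 0.14 (limma adjusted p = 0.32). Its direction depended on the scaling: after quantile normalization it was 0.22 in gvs1-1 (limma adjusted p = 0.17) and 0.45 in Col (limma adjusted p = 0.01), and the authors' deposited table gave 0.19 (limma adjusted p = 0.26) and 0.47 (limma adjusted p = 0.0098). With the scan day as a block the change in Col was -0.33 (limma adjusted p = 0.046). Without gvs1-1 DAE14 replicate 3 the change in gvs1-1 was -0.38 (limma adjusted p = 0.032). The genotype difference was 0.06 at DAE28, with an interval of -0.23 to 0.35 (limma adjusted p = 0.78), and 0.18 at DAE14, with an interval of -0.11 to 0.47 (limma adjusted p = 0.52).

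**Figure D2:**
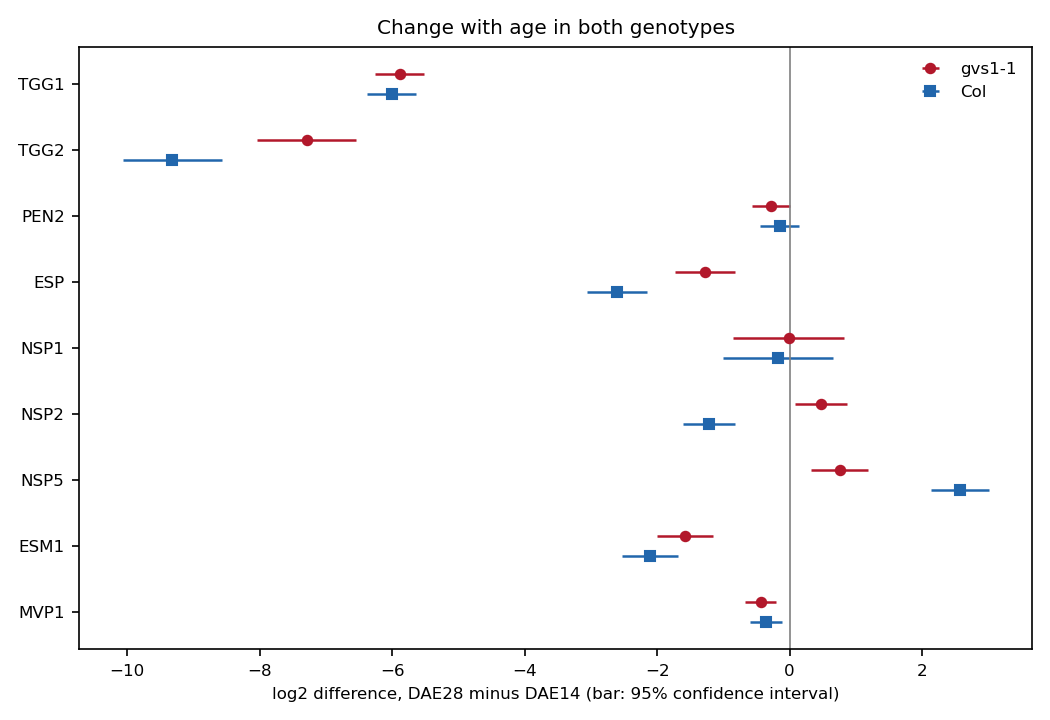
Age change of the 9 genes as the log2 difference DAE28 minus DAE14 in gvs1-1 (circles, upper of each pair) and in Col (squares), with 95% confidence intervals from the limma fit on 3 arrays a group. TGG1 changed by -5.89 in gvs1-1 and -6.01 in Col, and the pairs lie furthest apart for TGG2, NSP5, NSP2 and ESP.

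ESP encodes the epithiospecifier protein, which turns the aglucone toward epithionitriles and nitriles; Col is known as an accession whose leaves form mainly isothiocyanates. Its signal on gvs1-1 arrays was 7.07, 7.69 and 8.51 at DAE28, against 22.0, 16.8 and 18 at DAE14. Col arrays read 2.44, 3.23 and 4.65 at DAE28, against 20.6, 20.8 and 19.3 at DAE14. The genotypes overlapped at DAE14, and at DAE28 all 3 gvs1-1 arrays were above all 3 Col arrays. ESP fell by 1.28 ± 0.20 in gvs1-1 (limma adjusted p = 0.00038), to a signal 2.43-fold lower, and fell by 2.61 ± 0.20 in Col (limma adjusted p = 1.6e-06), to a signal 6.09-fold lower. At DAE28 it was higher in gvs1-1 by 1.22 ± 0.20, with an interval of 0.77 to 1.67 (limma adjusted p = 0.002), whereas at DAE14 the difference was -0.10, with an interval of -0.56 to 0.35 (limma adjusted p = 0.84). The age changes differed by 1.32 ± 0.29 (interval 0.68 to 1.96, limma adjusted p = 0.015).

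The ESP result was seen with each of its 3 probes. The DAE28 difference was 1.22, 1.32 and 1.41 by probe, and the difference between the age changes was 1.32, 1.41 and 1.60. That difference between the age changes passed in 23 of 23 alternative settings, and the DAE28 difference passed in 23 of 24. The exception was the slide as a block, with 1.09 (limma adjusted p = 0.057). Within scan day 1, Col DAE28 had replicate 1 alone and gvs1-1 DAE14 had replicate 3 alone. There the DAE28 difference was 1.66 and the difference between the age changes was 1.83.

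NSP1 encodes a nitrile-specifier protein that directs the aglucone to simple nitriles. In gvs1-1 the arrays read 1.14, 1.54 and 0.619 at DAE28, against 1.14, 1.05 and 0.938 at DAE14. Col arrays read 0.416, 0.832 and 1.13 at DAE28, against 0.779, 0.880 and 0.823 at DAE14. The spread within each DAE28 group was wider than the gaps between the groups: the SD of log2 signal was 0.67 at DAE28 and 0.14 at DAE14 in gvs1-1, and 0.74 at DAE28 and 0.09 at DAE14 in Col. With the brightest probe, every gvs1-1 array lay above every Col array at DAE14. None of the 5 comparisons passed. The age change was -0.02 in gvs1-1, with an interval of -0.85 to 0.82 (limma adjusted p = 0.98), and -0.18 in Col, with an interval of -1.01 to 0.66 (limma adjusted p = 0.69). The genotype difference was 0.49 at DAE28, with an interval of -0.34 to 1.32 (limma adjusted p = 0.35), and 0.33 at DAE14, with an interval of -0.50 to 1.16 (limma adjusted p = 0.71).

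The 4 probes of NSP1 did not all read alike. Probe 3 fell in Col by 0.92 ± 0.20 (limma adjusted p = 0.002), and its age changes in the genotypes differed by 1.17 ± 0.29 (limma adjusted p = 0.021). The other 3 probes passed in neither test, with changes in Col of -0.18, -0.24 and -0.48. Between the genotypes at DAE14, probe 3 gave -0.68 ± 0.20 (limma adjusted p = 0.15), against 0.33, 0.09 and 0.18 for the other 3. The mean of all kept probes gave -0.02 there (limma adjusted p = 0.98). On slide 1 alone, where Col DAE28 had replicate 1 only, the brightest probe fell by 0.99 (limma adjusted p = 0.0052), and replicate 1 was the lowest of the Col DAE28 arrays. NSP1 lies in 1 stretch of the chromosome with NSP3 and NSP4, close relatives whose probes were above background on at most 2 arrays, and with PBP1, a jacalin-related gene.

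**Figure D3:**
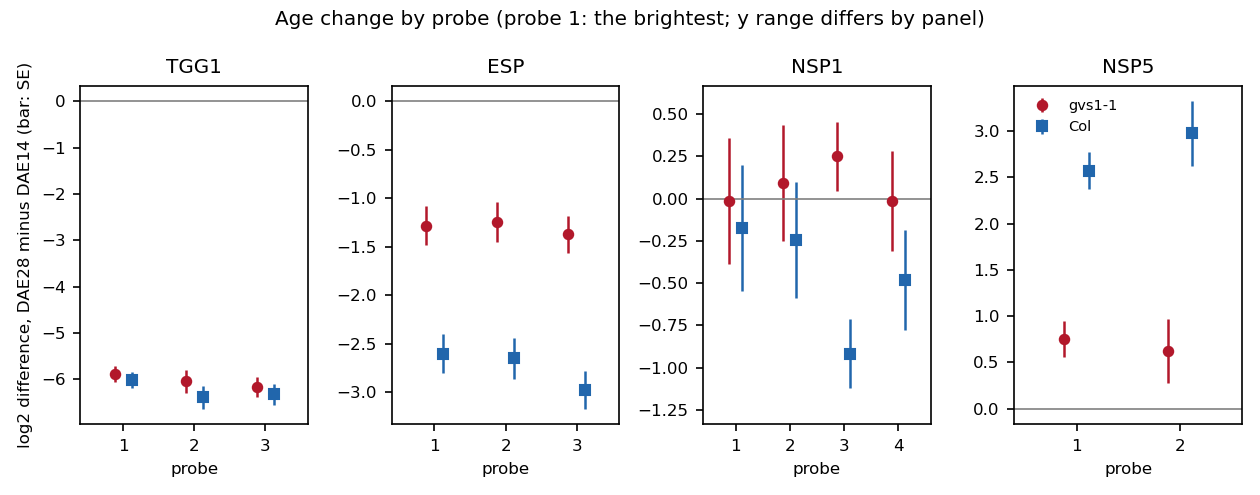
Age change by probe for the 4 genes with several probes, as the log2 difference DAE28 minus DAE14 ± SE in gvs1-1 (circles, left of each pair) and Col (squares); probe 1 is the brightest and stands for the gene, and the y range differs by panel. Probes of TGG1, ESP and NSP5 lie together, while probe 3 of NSP1 sits at -0.92 in Col and its other probes at -0.48 to -0.18.

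NSP2 encodes a second nitrile-specifier protein, known mainly from seeds. Its signal was dim throughout: before scaling it was 23.6 to 95.7 units. The gvs1-1 arrays read 0.0478, 0.0554 and 0.0583 at DAE28, against 0.0393, 0.0300 and 0.0492 at DAE14. Col arrays read 0.0411, 0.0425 and 0.0410 at DAE28, against 0.108, 0.102 and 0.0810 at DAE14. The 3 Col DAE14 arrays lay above all others, the stages overlapped in gvs1-1, and at DAE28 every gvs1-1 array lay above every Col array. Before scaling, the signal was 62.3 to 68.1 units at DAE28 and 23.6 to 39.8 units at DAE14 in gvs1-1, and 59.1 to 64.3 units at DAE28 and 67.05 to 95.7 units at DAE14 in Col. NSP2 fell by 1.21 ± 0.18 in Col (limma adjusted p = 0.00012), and in gvs1-1 it rose by 0.47 ± 0.18 (limma adjusted p = 0.038). The age changes differed by 1.68 ± 0.25 (interval 1.13 to 2.24, limma adjusted p = 0.0039).

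NSP2 was the only one of the 9 that passed between the genotypes at DAE14, where 0.313% of all genes passed, 0.047% higher and 0.266% lower in gvs1-1. It was lower in gvs1-1 by 1.32 ± 0.18 on the log2 scale, with an interval for gvs1-1 minus Col of -1.71 to -0.93 (limma adjusted p = 0.024). At DAE28 the difference was 0.37 ± 0.18, with an interval of -0.02 to 0.76 (limma adjusted p = 0.13). The DAE14 call was kept in 11 of 24 alternative settings with the same sign in 24. With normexp correction the DAE14 difference was -0.75 (limma adjusted p = 0.55), the age change in Col -0.48 (limma adjusted p = 0.34; -0.60 from the authors' deposited table, limma adjusted p = 0.00048), that in gvs1-1 0.02 (limma adjusted p = 0.98) and the difference between the age changes 0.50 (limma adjusted p = 0.69). Within scan day 1, gvs1-1 DAE14 had replicate 3 alone, the highest of its group, and Col DAE28 had replicate 1 alone. There the DAE14 difference was -0.97, the age change in gvs1-1 0.12 and the difference between the age changes 1.35. With the slide as a block the DAE14 difference was -1.51 (limma adjusted p = 0.15) and the age change in gvs1-1 0.12 (limma adjusted p = 0.65). With the scan day as a block the DAE14 difference was -1.15 (limma adjusted p = 0.21), the age change in gvs1-1 0.31 (limma adjusted p = 0.24) and the difference between the age changes 1.35 (limma adjusted p = 0.053).

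Single arrays also decided NSP2 calls. The DAE14 call was lost without any 1 of the 3 Col DAE14 arrays (limma adjusted p = 0.11, 0.092 and 0.066), without gvs1-1 DAE14 replicate 1 or 2 (limma adjusted p = 0.065 and 0.067), without Col DAE28 replicate 2 (limma adjusted p = 0.051) and without gvs1-1 DAE28 replicate 2 (limma adjusted p = 0.058). The rise in gvs1-1 passed in 12 of 25 alternative settings. Without gvs1-1 DAE14 replicate 2 it was 0.29 (limma adjusted p = 0.14), and it was also lost without gvs1-1 DAE14 replicate 1, gvs1-1 DAE28 replicate 2 or 3, or Col DAE28 replicate 2 (limma adjusted p = 0.074, 0.094, 0.11 and 0.05).

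NSP5 encodes a further nitrile-specifier protein and was the 1 gene of the 9 that rose with age in both genotypes. The gvs1-1 arrays gave it signals of 52.1, 43.4 and 33.5 at DAE28, against 25.9, 23.4 and 26.0 at DAE14. Col arrays read 104, 144 and 170 at DAE28, against 23.2, 24.5 and 21.2 at DAE14. The groups stood in the order Col DAE28, gvs1-1 DAE28, then both DAE14 groups, which overlapped with each other. NSP5 rose by 0.76 ± 0.20 in gvs1-1 (limma adjusted p = 0.0069), a 1.69-fold rise, and by 2.57 ± 0.20 in Col (limma adjusted p = 1.3e-06), a 5.95-fold rise. At DAE28 it was 3.22-fold lower in gvs1-1 than in Col, a log2 difference of -1.69 ± 0.20 with an interval of -2.12 to -1.26 (limma adjusted p = 0.00043). At DAE14 the difference was 0.13, with an interval of -0.30 to 0.56 (limma adjusted p = 0.79). The age changes differed by -1.82 ± 0.28 (interval -2.43 to -1.21, limma adjusted p = 0.004).

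The second probe of NSP5 gave a difference of -2.27 at DAE28 (limma adjusted p = 0.0013), an age change of 2.97 in Col (limma adjusted p = 2.4e-05) and one of 0.63 in gvs1-1 (limma adjusted p = 0.14). The DAE28 difference passed in 24 of 24 alternative settings. Within scan day 1, where Col DAE28 had replicate 1 alone and gvs1-1 DAE14 replicate 3 alone, the DAE28 difference was -1.29. The difference between the age changes was -1.47 there, and -1.47 with the scan day as a block (limma adjusted p = 0.058). In gvs1-1 the age change was 0.70 within slide 3 (limma adjusted p = 0.14) and 1.36 after quantile normalization (limma adjusted p = 0.00099).

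ESM1 encodes the epithiospecifier modifier, a lipase-like protein that favours isothiocyanates over nitriles. Its signal on gvs1-1 arrays was 30.8, 20.2 and 20.7 at DAE28, against 79.4, 73.4 and 59.0 at DAE14. Col arrays read 26.8, 19.2 and 19.9 at DAE28, against 90.7, 102 and 88.2 at DAE14. The stages were apart in both genotypes, the DAE28 groups overlapped, and at DAE14 every gvs1-1 array lay below every Col array. That separation at DAE14 depended on the scaling. In the authors' deposited table the DAE14 arrays overlapped, at 15.61 to 16.11 in gvs1-1 and 15.88 to 15.96 in Col. ESM1 fell by 1.58 ± 0.19 in gvs1-1 (limma adjusted p = 7.2e-05) and fell by 2.11 ± 0.19 in Col (limma adjusted p = 4.6e-06). After quantile normalization the values were -1.01 (limma adjusted p = 0.0035) and -1.16 (limma adjusted p = 0.0011), and the authors' deposited table gave -1.12 and -1.20. The genotype difference was 0.11 at DAE28, with an interval of -0.32 to 0.54 (limma adjusted p = 0.7), and -0.42 at DAE14, with an interval of -0.85 to 0.01 (limma adjusted p = 0.31). The age changes differed by 0.53, with an interval of -0.08 to 1.14 (limma adjusted p = 0.19). After quantile normalization the DAE14 difference was -0.06 and the difference between the age changes 0.15. The authors' deposited table gave -0.02 and 0.08, and with the slide as a block the DAE14 difference was 0.16.

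MVP1 encodes a lipase-like protein that binds TGG2 and is needed for proteins to leave the endoplasmic reticulum. It is a neighbour of ESP, with 1 annotated pseudogene between them. In gvs1-1 the arrays read 2.11, 2.03 and 2.05 at DAE28, against 2.96, 2.89 and 2.54 at DAE14. Col arrays read 1.80, 2.09 and 1.76 at DAE28, against 2.32, 2.69 and 2.21 at DAE14. The stages did not overlap within a genotype, and the genotypes overlapped at each stage. MVP1 fell by 0.44 ± 0.11 in gvs1-1 (limma adjusted p = 0.0053) and fell by 0.35 ± 0.11 in Col (limma adjusted p = 0.014). Before scaling, its signal was 2392 to 2748 units at DAE28 and 2054 to 2637 units at DAE14 in gvs1-1. In Col it was 2597 to 3003 units at DAE28 and 1830 to 2057 units at DAE14. The fall in Col was -0.27 without Col DAE14 replicate 2 (limma adjusted p = 0.058), -0.18 after median centring (limma adjusted p = 0.24) and -0.41 within slide 1 (limma adjusted p = 0.093), and that in gvs1-1 was -0.30 with the slide as a block, within slide 3 and within scan day 1 (limma adjusted p = 0.12 in each). The genotype difference was 0.13 at DAE28, with an interval of -0.11 to 0.37 (limma adjusted p = 0.38), and 0.22 at DAE14, with an interval of -0.02 to 0.46 (limma adjusted p = 0.34).

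Between the genotypes at DAE28, TGG2 and ESP were higher and NSP5 was lower in gvs1-1, and the other 6 did not pass. Among all genes 33.1% passed at this stage, 17.8% higher and 15.3% lower. The median difference of the 9 was 0.13, beside 0.04 over all genes, and for 4 of the 9 the groups did not overlap, as for 45.7% of all genes. At DAE14 NSP2 alone passed, the median was 0.05, beside 0.01 over all genes, and the groups did not overlap for 3 of the 9 and for 27.8% of all genes. The test of the difference between the age changes passed for 4 of the 9, beside 18.6% of all genes. It was positive for TGG2, ESP and NSP2, as for 9.81% of all genes, and negative for NSP5, as for 8.83%. For TGG2, ESP and NSP5 the age change was the smaller one in gvs1-1. The senescence regulator NAP and the chlorophyll breakdown gene NYE1 were lower in gvs1-1 at DAE28, with log2 differences of -1.62 ± 0.21 (limma adjusted p = 0.00064) and -1.95 ± 0.18 (limma adjusted p = 0.00022). Their part in the genotype differences of TGG2, ESP and NSP5 was not tested.

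**Figure D4:**
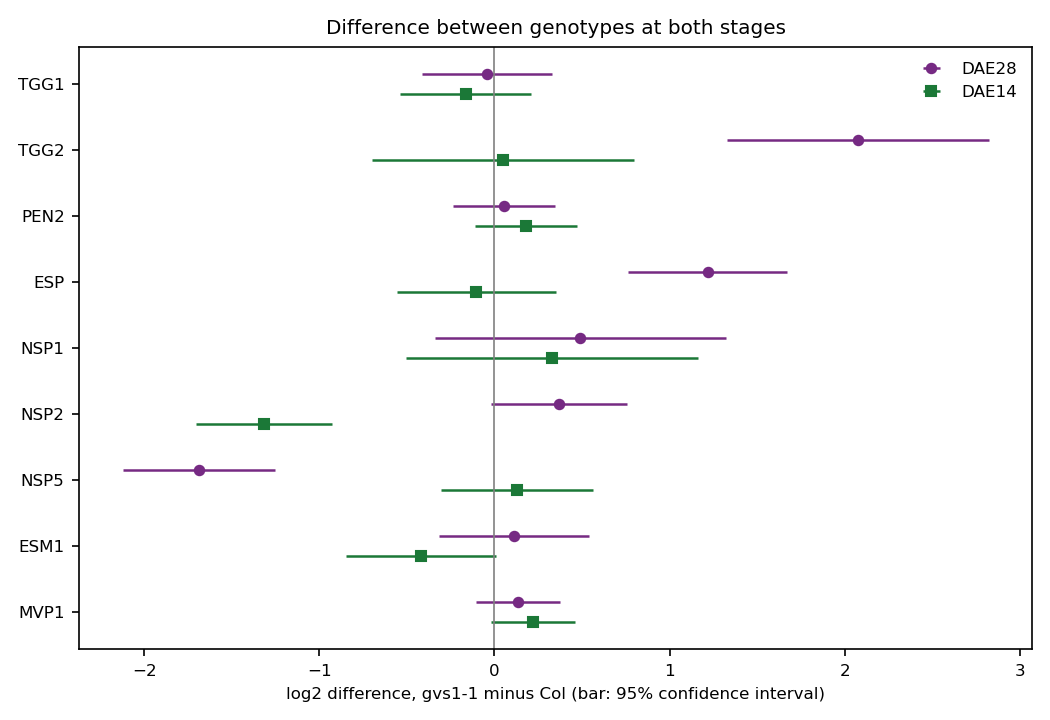
Genotype difference of the 9 genes as log2 gvs1-1 minus Col at DAE28 (circles, upper of each pair) and at DAE14 (squares), with 95% confidence intervals from the limma fit on 3 arrays a group. At DAE28 the intervals of TGG2 and ESP lie above 0 and that of NSP5 lies below it; at DAE14 the interval of NSP2, -1.71 to -0.93, lies below 0.

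Across the 12 arrays TGG1 and TGG2 moved together, with a Pearson r of 0.982, and ESP and NSP5 moved oppositely, with an r of -0.92. These values describe 12 arrays that share 4 groups, slides and scaling. Among genes with a symbol outside the 9, the nearest in pattern over the 12 arrays were RXF12 (r = 0.998) and GPT1 (r = 0.997) for TGG1, RWA4 (r = 0.997) and FAD8 (r = 0.995) for TGG2, and TUB9 (r = 0.896) and LBD38 (r = 0.879) for PEN2. For the specifiers they were BAM2 (r = 0.998) and PTAC16 (r = 0.996) for ESP, MIOX1 (r = 0.853) and PBP1 (r = 0.838) for NSP1, SHN3 (r = 0.941) and ZTL (r = 0.909) for NSP2, and CYP709B2 (r = 0.991) and LPLAT1 (r = 0.990) for NSP5. MCM5 (r = 0.987) and TOPII (r = 0.982) were nearest to ESM1, and SYP71 (r = 0.962) and EDA10 (r = 0.956) to MVP1. RXF12 had age changes of -6.25 in gvs1-1 and -6.23 in Col, close in size to those of TGG1, whereas GPT1 had -1.09 in gvs1-1 and -1.13 in Col.

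Other beta-glucosidases that cut glucosinolates or lie close to that role moved in both directions. Of 8 listed, 4 were measured. With age 2 rose and 1 fell in gvs1-1 (median 1.63), and 3 rose and 1 fell in Col (median 2.13). Of all genes, 61.3% passed with age in gvs1-1 and 72% in Col. TGG3, a relative of TGG1 and TGG2 that is known as a pseudogene transcribed in flowers, was not well above background at DAE28 and fell at least 9.31-fold in gvs1-1 (limma adjusted p = 1.1e-05) and at least 25.3-fold in Col (limma adjusted p = 4.1e-07). A bound of this kind sets the mean of the brighter group against a floor on the dim arrays, the higher of the lowest detected signal and the gene's own. BGLU30, a beta-glucosidase known to break down glucosinolates in sulfur-starved plants, rose at least 546-fold in Col (limma adjusted p = 4.6e-07). In gvs1-1 its fitted change was 6.16 ± 0.69 (limma adjusted p = 4.2e-05), of uncertain size because 1 of 3 DAE14 arrays was above background. At DAE28 it was lower in gvs1-1, with a log2 difference of -4.19 ± 0.69 (limma adjusted p = 0.0018).

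PYK10, the main beta-glucosidase of root endoplasmic reticulum bodies, had a fitted change in gvs1-1 of 1.88 ± 1.22 (limma adjusted p = 0.2) and in Col of 3.12 ± 1.22 (limma adjusted p = 0.041). In Col it was above background on 1 of the 3 DAE14 arrays, so the size of that change, and with it the list's median of 2.13, is uncertain. BGLU18, its leaf relative, rose by 1.38 ± 0.34 in gvs1-1 (limma adjusted p = 0.0051) and by 1.14 ± 0.34 in Col (limma adjusted p = 0.012). TGG4 and TGG5, the root myrosinases, were above background on 0 arrays, BGLU28 was so on 2 arrays, and TGG6 had no matched probe.

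Genes for myrosinase-binding proteins rose with age in both genotypes. Of 10 other specifier, binding and endoplasmic reticulum body genes, 7 were measured. In gvs1-1 3 rose, beside 31.2% of all genes, and the other 4 did not pass (median 0.39). In Col 4 rose, beside 35.7% of all genes, and the other 3 did not pass. The median in Col was 1.17, or 0.83 with AT1G54020 at its bound. The myrosinase-binding protein gene MBP1 rose by 3.22 ± 0.31 in gvs1-1 (limma adjusted p = 1.6e-05) and by 2.29 ± 0.31 in Col (limma adjusted p = 7.3e-05). MBP2, its close relative, rose by 3.10 ± 0.37 in gvs1-1 (limma adjusted p = 5.7e-05) and by 2.55 ± 0.37 in Col (limma adjusted p = 0.00011). TSA1, an endoplasmic reticulum body gene, rose by 1.45 ± 0.22 in gvs1-1 (limma adjusted p = 0.00025) and by 1.17 ± 0.22 in Col (limma adjusted p = 0.00064). All 3 were higher in gvs1-1 at DAE28: MBP1 by 1.45 (limma adjusted p = 0.0061), MBP2 by 1.58 (limma adjusted p = 0.009) and TSA1 by 1.00 (limma adjusted p = 0.0065). At DAE14 their differences had the same sign, 0.52, 1.03 and 0.72, and did not pass (limma adjusted p = 0.44, 0.21 and 0.17). The limma test of the difference between age changes passed for 0 of the 7, also at an unadjusted p under 0.05. By adjusted p, 18.6% of all genes passed that test. AT1G54020, a lipase-like neighbour of MVP1, rose at least 1.78-fold in Col (limma adjusted p = 0.034).

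Genes that act after hydrolysis or move glucosinolates split in direction. Of 8 listed, 7 were measured. With age 1 rose and 2 fell in gvs1-1 (median -0.16), and 3 rose and 3 fell in Col (median 0.08). The share of all genes that passed was 61.3% in gvs1-1 and 72% in Col. GTR2, a glucosinolate importer of the vasculature, rose by 0.93 ± 0.16 in gvs1-1 (limma adjusted p = 0.00056) and by 2.46 ± 0.16 in Col (limma adjusted p = 4.7e-07), and the age changes differed by -1.53 ± 0.22 (limma adjusted p = 0.0037). NIT3, a nitrilase gene, rose by 1.42 ± 0.14 in Col (limma adjusted p = 9e-06), its change in gvs1-1 was 0.14 ± 0.14 (limma adjusted p = 0.42), and the age changes differed by -1.28 ± 0.20 (limma adjusted p = 0.0045). Both GTR2 and NIT3 were lower in gvs1-1 at DAE28, with differences of -1.02 (limma adjusted p = 0.0014) and -0.77 (limma adjusted p = 0.0033). GSTU13 and PCS1, which act in the PEN2 pathway, fell in both genotypes, with changes of -1.15 and -0.70 in gvs1-1 (limma adjusted p = 0.00042 and 0.0012) and of -1.35 and -0.90 in Col (limma adjusted p = 8.6e-05 and 0.00015).

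Of 22 genes of glucosinolate synthesis and its control, all measured, 12 fell and 2 rose in gvs1-1 (median -0.51). In Col 12 fell and 4 rose (median -0.43). Beside them, 30.1% of all genes fell and 31.2% rose in gvs1-1, and 36.2% fell and 35.7% rose in Col. In either direction 61.3% of all genes passed in gvs1-1 and 72% in Col. MYB34, a regulator of indole glucosinolates, fell by 1.61 ± 0.34 in gvs1-1 (limma adjusted p = 0.0021) and fell by 2.30 ± 0.34 in Col (limma adjusted p = 0.00013). MYB29, a regulator of aliphatic glucosinolates, fell by 1.71 ± 0.17 in gvs1-1 (limma adjusted p = 2.2e-05) and fell by 2.05 ± 0.17 in Col (limma adjusted p = 2.6e-06). UGT74C1, a glucosyltransferase gene, fell by 1.23 ± 0.15 in gvs1-1 (limma adjusted p = 7.7e-05) and fell by 1.33 ± 0.15 in Col (limma adjusted p = 2.2e-05). MYB122, another indole regulator, read below the background limit at DAE14 and rose at least 5.42-fold in gvs1-1 (limma adjusted p = 6.4e-05) and at least 6.92-fold in Col (limma adjusted p = 1.8e-05). At DAE28 3 of the 22 were higher in gvs1-1 than in Col and the other 19 did not pass. Of all genes, 17.8% were higher and 15.3% lower there. At DAE14 limma called 0 of the 40 measured genes of these 4 lists, where 0.313% of all genes passed. An unadjusted limma p under 0.05 was found for 10 of the 40. The share of all genes under that unadjusted limit is not given here, so the 10 cannot be read as an excess.

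**Figure D5:**
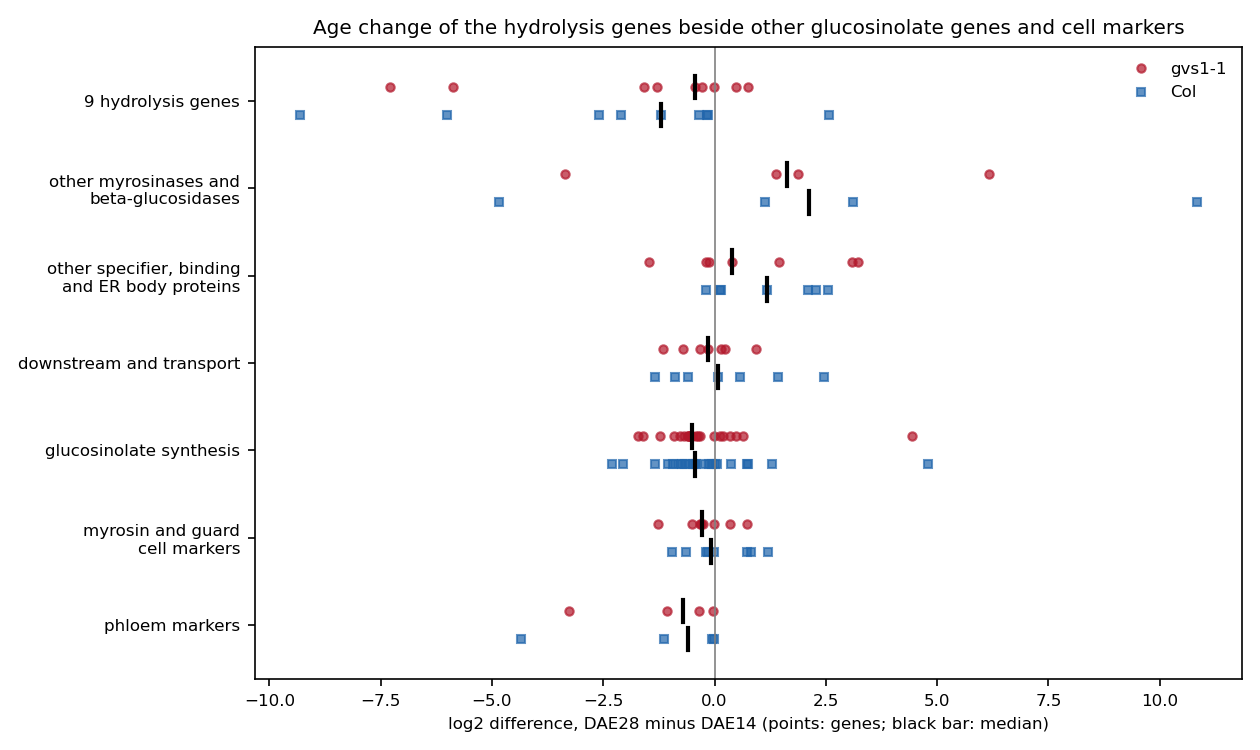
Age change (log2 difference DAE28 minus DAE14) of the 9 hydrolysis genes, of 4 lists of related genes and of 2 marker lists, in gvs1-1 (circles, upper row of each pair) and Col (squares); each point is a measured gene, the black bar is the list median, and genes below background in a group are drawn at their fitted value. The 9 genes have medians of -0.44 in gvs1-1 and -1.21 in Col, and the specifier, binding and endoplasmic reticulum body list has medians of 0.39 in gvs1-1 and 1.17 in Col.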

How the data were processed

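Total RNA of 12 leaf samples was labelled with Cy3 and hybridised to one-colour Agilent arrays, per the labels' protocols. The deposited array files hold spot intensities on a linear scale from Agilent Feature Extraction 11.5.1.1, per the file headers (11.5 per the submitters' processing notes), and the processed signal in them is the authors' background-corrected intensity. The authors' deposited gene table holds log2 values for 21266 loci; how its arrays were scaled was not stated, its column medians ran from 8.86 to 8.91, and it served only as an alternative.

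Of 43603 probes, 34348 were matched through RefSeq accessions to 25410 loci. After 166 probes with an outlier mark were left out (0 spots were saturated), log2 processed signal was set relative to each array's 75th percentile. A probe entered the fit where every one of a group's 3 arrays had it well above background (26801 probes with a locus), and the brightest kept probe stood for each of 19152 genes. Files name TAIR10 and the gene table used for names TAIR10.1, so no coordinates are printed, and no probe sequences were used here.

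One limma 3.58.1 fit in R 4.3.3 (lmFit, eBayes) over all 12 arrays gave 5 two-sided comparisons: the age change (DAE28 minus DAE14) in gvs1-1 and in Col, the genotype difference (gvs1-1 minus Col) at DAE28 and at DAE14, and the difference between the age changes. The number of arrays and the signal over background limit the precision: the 75th percentile of processed signal was 700.0 to 891 units at DAE14 and 1169 to 1567 units at DAE28. The 3 samples of a group are called independent biological samples by the submitters, and p-values measure the spread between them. The script was tested on simulated data. The 26 alternative settings covered scaling, normexp background correction, dim probes, probe averaging, the authors' table, slide, scan day, replicate number and each array left out. The files hold no mean spot signal, so normexp used the median spot signal with an offset of 50.

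Beside the 9 genes and their relatives, each list names up to 4 genes, those with the largest passing age change in Col. The mesophyll and root markers are given without gene names. FAMA is named for its role, APL as the other phloem marker that passed at DAE28, and NAP and NYE1 as a check of the stages. Probe 3 of NSP1 and the values of RXF12 and GPT1 are given after they were seen. For each of the 9, the 2 genes nearest by Pearson r are named. The genes and lists were chosen with earlier results of these data known.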

Additional observations from a re-analysis of the deposited data

Results flagged for a closer look

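The age change differed between the genotypes for 4 of the 9 genes by the limma test of that difference, the age change in gvs1-1 minus the one in Col. The value was 2.03 on the log2 scale for TGG2 (95% interval 0.97 to 3.09, limma adjusted p = 0.019), which fell by 7.29 in gvs1-1 and fell by 9.32 in Col. For ESP it was 1.32 (interval 0.68 to 1.96, limma adjusted p = 0.015), with changes of -1.28 in gvs1-1 and -2.61 in Col. For NSP2 it was 1.68 (interval 1.13 to 2.24, limma adjusted p = 0.0039), with a change of 0.47 in gvs1-1 and -1.21 in Col. For NSP5 it was -1.82 (interval -2.43 to -1.21, limma adjusted p = 0.004), with rises of 0.76 in gvs1-1 and 2.57 in Col. Of all genes, 18.6% passed this test.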

How the results depend on the processing

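The falls of TGG1, TGG2, ESP and ESM1 with age passed in both genotypes under all 25 alternatives run, and so did the rise of NSP5 in Col. With 1 array left out, the number of the 9 that passed at DAE14 between genotypes ran from 0 to 1, against 1 with all arrays. It was also 0 with normexp, with the slide, the scan day or the replicate block as a term, within scan day 1 and with only the 2 groups in the fit, settings in which 0.0104% to 0.0731% of all genes passed, against 0.313%. The number that changed with age in gvs1-1 was 4 within scan day 1 and 4 within slide 3, where 46.6% and 36.2% of all genes passed, against 7 and 61.3%. The number that differed at DAE28 was 1 with the slide as a block, where 9.18% of all genes passed, against 3 and 33.1%. The number whose age changes differed was 2 with normexp, 1 with the scan day as a block and 2 within scan day 1, where 7.76%, 4.7% and 7.62% of all genes passed, against 4 and 18.6%. Fits within scan day 1, slide 1 and slide 3 were chosen after seeing the data; they rest on 8, 4 and 4 arrays, and a lone array is assumed to vary like the others. PEN2 changed sign with age in Col, to 0.45 after quantile normalization and 0.47 in the authors' deposited table; the causes of this and of the other shifts were not tested. The median age change of all genes in Col was 0.01, and it was 0.12 after quantile normalization, 0.18 after median centring and -0.33 with no filter on dim probes. The replicate block gave 6 genes for age in gvs1-1, 7 for age in Col, 3 at DAE28 and 4 for the difference between the age changes. Between the genotypes at DAE14 it gave 0 genes, against 1 in the main fit. The replicate numbers did not pair the samples. Deviations of same-numbered arrays from their group means correlated at -0.27 to 0.51, best with their own number in 13 of 36 cases. TGG2 at DAE28 and NSP2 throughout were dim, and their differences were smaller in the normexp setting, which also used the median spot signal and an offset.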
